A study of Mus musculus with 12 samples.

Results

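The 46 genes described here are interferon-stimulated genes: transcription factors and regulators of the interferon response, sensors of nucleic acids, antiviral effectors, guanylate-binding proteins (GBPs) and immunity-related GTPases (IRGs). They were named by symbol, and each was matched to the array's annotation, taking for a gene with several probe sets the one with the highest mean over the 12 arrays. Of the 46 genes, 41 were measured among 22180 genes: 9 factors and regulators, 9 sensors, 13 effectors, 6 GBPs and 4 IRGs. Dtx3l, Oas1a, Gbp2 and Ifi47 lay only on probe sets shared with another gene and Ifi44 had no match, so these 5 are not analysed here.

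The study measured total RNA of sorted mouse CD4+ T cells on Affymetrix Mouse Gene 2.0 ST arrays, with 2 arrays in each of 6 groups. All cells came from spleens of 8-week-old C57BL/6-Foxp3.GFP mice, a reporter strain in which regulatory T (Treg) cells carry GFP. CD4+ cells were taken fresh and untreated (control), or were cultured for 3 days either with the antibodies anti-CD3 and anti-CD28 at 2 µg/ml each, which engage the T cell receptor and its costimulator, or with OX40L at 5 µg/ml and JAG1 at 1 µg/ml, ligands of the costimulatory receptor OX40 and of Notch receptors. Each culture and the fresh cells were sorted by GFP into Foxp3+ Treg and Foxp3- effector (Teff) cells. A treated group therefore differs from its control by culture as well as by treatment. Whether the 2 arrays of a group came from different mice or cultures is not given in the labels, so the p-values rest on a spread that may be technical, and the number of arrays limits the precision.

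As background, type I interferons signal through a receptor that activates Jak1 and Tyk2, and a complex that includes Stat2 and Irf9 then binds interferon-stimulated response elements (ISREs). Interferon gamma signals through another receptor, and its target genes often hold gamma-activated sites (GAS). Many antiviral genes answer to either interferon, whereas GBPs and IRGs, GTPases that act on the membranes around intracellular pathogens, are known as strong targets of interferon gamma; most of these genes are kept at a low tonic level in resting lymphocytes. In these bulk samples, fewer cells of a type and less RNA per cell cannot be told apart.

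The values are log2 intensities, and levels of different genes were not set against each other. Foxp3 read 10.36 to 11.22 on the 6 Treg arrays and 5.58 to 6.81 on the 6 Teff arrays, as the sort labels say. The 2 OX40L-JAG1 Teff arrays stood apart: the SD over genes was 1.49 and 1.71, against 1.95 to 2.19 on the other 10 arrays, and they correlated with each other at 0.881 over all genes, where replicates elsewhere reached 0.984 to 0.994. T cell markers averaged 8.95 to 9.67 on these arrays and 10.09 to 10.97 elsewhere, while 7 neutrophil markers averaged 7.96 to 9.20, against 3.87 to 4.74 in control and anti-CD3-CD28 cells. OX40L-JAG1 Treg arrays also had raised neutrophil markers, at 6.43 to 6.82. Results that use the OX40L-JAG1 Teff arrays are therefore given last, and other counts are given with and without these arrays in the model. The lowest array median, 4.87, served as a floor: 37 of the 41 genes were at or above it in every group, Mx1, Mx2 and Gbp2b were below it in some groups, and Gbp6 was below it in all 6.

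RefSeq promoters of 300 bases (GRCm38.p6, 250 before to 50 after the start) were found for 29 of the 41 genes. ISRE-like letters, a pair of GAAA with any 2 bases between them, or a pair of TTTC spaced alike for the other strand, were present for 18 of the 29 genes (62.1%), against 4.0% of 26742 genes with a promoter. GAS-like letters, TTC and GAA with any 3 bases between them, which read the same on the other strand, were present for 11 (37.9%), against 9.6%. Both shares were above those of all genes, as a description of the letters. ISRE-like letters were found in all 4 GBPs and all 3 IRGs with a promoter, in 4 of 6 sensors, 5 of 10 effectors and 2 of 6 factors and regulators. GAS-like letters were found in 2 of 4 GBPs, 2 of 3 IRGs, 1 of 6 sensors, 4 of 10 effectors and 2 of 6 factors and regulators. The 150 bases before the start are shown for 6 genes whose values differ below, chosen after their values were seen. Igtp, Irgm2 and Gbp7 are GTPase genes that rose in Treg cells with both treatments. Isg15, Oas3 and Rsad2 are antiviral genes that in Treg cells were not called with OX40L-JAG1 against control and were higher with anti-CD3-CD28 than with OX40L-JAG1. They are written 5′ to 3′ on the strand of the gene, with the matching letters in capitals.
Igtp: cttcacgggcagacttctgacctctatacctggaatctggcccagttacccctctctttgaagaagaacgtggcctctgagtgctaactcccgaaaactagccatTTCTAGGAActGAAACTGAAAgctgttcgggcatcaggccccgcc
Irgm2: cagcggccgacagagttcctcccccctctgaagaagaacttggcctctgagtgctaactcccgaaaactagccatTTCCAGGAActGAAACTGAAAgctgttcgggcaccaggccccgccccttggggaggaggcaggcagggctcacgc
Gbp7: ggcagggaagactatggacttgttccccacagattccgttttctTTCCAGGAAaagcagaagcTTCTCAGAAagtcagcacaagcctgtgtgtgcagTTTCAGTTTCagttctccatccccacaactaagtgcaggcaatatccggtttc
Isg15: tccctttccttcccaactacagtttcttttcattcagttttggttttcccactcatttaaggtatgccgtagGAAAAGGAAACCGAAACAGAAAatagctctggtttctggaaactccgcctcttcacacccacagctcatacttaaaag
Oas3: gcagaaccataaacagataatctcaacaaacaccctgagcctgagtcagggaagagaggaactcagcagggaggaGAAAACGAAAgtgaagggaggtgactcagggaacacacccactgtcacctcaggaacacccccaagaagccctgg
Rsad2: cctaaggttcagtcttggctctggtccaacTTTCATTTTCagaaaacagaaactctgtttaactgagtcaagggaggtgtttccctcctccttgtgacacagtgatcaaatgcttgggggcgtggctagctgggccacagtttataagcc
The windows lie at chr11:58199406-58199555, chr11:58214827-58214976 and chr3:142530186-142530335 on the plus strand, and at chr4:156200819-156200968, chr5:120777660-120777809 and chr12:26456453-26456602 on the minus strand. In Igtp and Irgm2, neighbouring genes of the IRG family, a GAS-like match was followed by an ISRE-like match whose first letter lay 11 bases further on, and their promoters share an identical run of 61 bases. Gbp7 held 2 GAS-like matches and then an ISRE-like match. Isg15 held 3 overlapping ISRE-like matches that began 78, 72 and 66 bases before the start. A match of letters is a description of the window and not evidence of a bound factor. The genes shown do not stand for their groups. Isg20, Eif2ak2 and Ifit1 also fit the description given for Isg15, Oas3 and Rsad2, and Isg20 and Eif2ak2 held GAS-like letters in a promoter. Of the GTPase genes not shown, Gbp5 held GAS-like letters, and Gbp2b, Gbp3 and Irgm1 held none.

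Over the 6 groups the 41 genes had one prevailing order. The highest group mean was that of anti-CD3-CD28 Treg cells for 32 of the 41 genes, and the lowest was that of OX40L-JAG1 Teff cells for 33. All 9 factors and regulators and all 6 GBPs were highest in anti-CD3-CD28 Treg cells, as were 7 of 9 sensors, 3 of 4 IRGs and 7 of 13 effectors; 5 of the other effectors, Ifit2, Ifit3, Mx1, Mx2 and Xaf1, were highest in anti-CD3-CD28 Teff cells. With each gene centred on its mean over groups, the median in control cells was -0.25 in Teff and -0.17 in Treg cells, and in OX40L-JAG1 Treg cells it was 0.26. It reached 0.43 in anti-CD3-CD28 Teff and 1.03 in anti-CD3-CD28 Treg cells. These ranks describe all 41 genes, Gbp6 included, and were not tested as such. The share of all genes with the same ranks is not given here. The SD over genes was largest on the anti-CD3-CD28 Treg arrays, at 2.19, and smallest on the OX40L-JAG1 Teff arrays, at 1.49 and 1.71. The T cell markers measured also had their lowest group means in OX40L-JAG1 Teff cells. The part of these array-wide differences in the ranks was not tested.

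**Figure D1:**
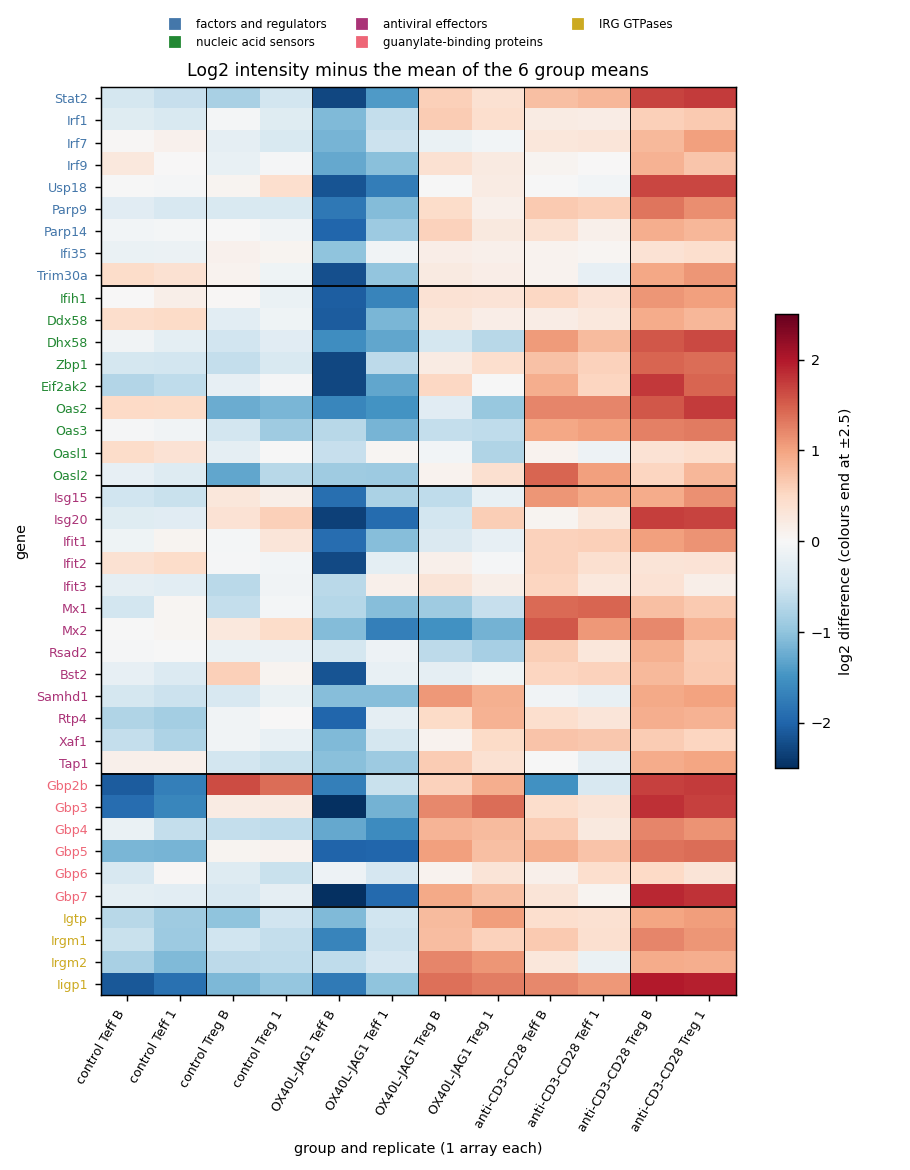
Each row is 1 of the 41 genes and each column 1 of the 12 arrays; colour gives the log2 level minus the gene's mean over the groups, with genes ordered by role. The 2 anti-CD3-CD28 Treg columns are highest for most genes, and the 2 OX40L-JAG1 Teff columns are lowest and differ from each other. Arrays of these groups also had the widest and the narrowest spread over all genes.

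Factors and regulators are given first, with the values of each group's 2 arrays in the order replicate B and replicate 1. Stat2, a subunit of the complex that binds ISREs, read 7.54 and 7.40 in control Teff, 7.16 and 7.51 in control Treg, 5.70 and 6.57 in OX40L-JAG1 Teff, 8.58 and 8.36 in OX40L-JAG1 Treg, 8.74 and 8.81 in anti-CD3-CD28 Teff and 9.66 and 9.72 in anti-CD3-CD28 Treg cells. The groups formed steps: OX40L-JAG1 Teff lowest, control cells next, OX40L-JAG1 Treg and anti-CD3-CD28 Teff above them, and both anti-CD3-CD28 Treg arrays above all others. Irf9, the DNA-binding subunit of that complex, read 8.71 and 8.45 in control Teff, 8.27 and 8.42 in control Treg, 7.17 and 7.40 in OX40L-JAG1 Teff, 8.83 and 8.68 in OX40L-JAG1 Treg, 8.51 and 8.45 in anti-CD3-CD28 Teff and 9.32 and 9.14 in anti-CD3-CD28 Treg. Irf9 therefore spanned less, and its anti-CD3-CD28 Teff arrays overlapped the control arrays. Irf7, the factor that amplifies type I interferon production, read 8.02 and 8.09 in control Teff, 7.75 and 7.60 in control Treg, 6.81 and 7.44 in OX40L-JAG1 Teff, 7.81 and 7.91 in OX40L-JAG1 Treg, 8.27 and 8.29 in anti-CD3-CD28 Teff and 8.79 and 9.01 in anti-CD3-CD28 Treg. Irf1, a factor induced mainly by interferon gamma, read 9.01 and 8.93 in control Teff, 9.26 and 9.01 in control Treg, 8.20 and 8.71 in OX40L-JAG1 Teff, 9.94 and 9.72 in OX40L-JAG1 Treg, 9.51 and 9.49 in anti-CD3-CD28 Teff and 9.89 and 9.96 in anti-CD3-CD28 Treg. Irf1 was similarly high in Treg cells of both treatments, where the arrays overlapped, whereas Irf7 was higher on both anti-CD3-CD28 Treg arrays than on any other.

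Usp18, the protease that removes Isg15 from proteins and dampens signalling from the type I receptor, read 7.71 and 7.70 in control Teff, 7.79 and 8.15 in control Treg, 5.56 and 6.00 in OX40L-JAG1 Teff, 7.72 and 7.94 in OX40L-JAG1 Treg, 7.71 and 7.66 in anti-CD3-CD28 Teff and 9.40 and 9.39 in anti-CD3-CD28 Treg. Its anti-CD3-CD28 Treg arrays stood more than 1 log2 unit above every other array, and the control, OX40L-JAG1 Treg and anti-CD3-CD28 Teff arrays lay close together. Parp9, an ADP-ribosyltransferase family member that acts with the ubiquitin ligase Dtx3l, read 8.19 and 8.07 in control Teff, 8.10 and 8.09 in control Treg, 6.69 and 7.38 in OX40L-JAG1 Teff, 8.94 and 8.61 in OX40L-JAG1 Treg, 9.12 and 9.07 in anti-CD3-CD28 Teff and 9.81 and 9.63 in anti-CD3-CD28 Treg. Trim30a, a TRIM protein that restrains Toll-like receptor signalling, read 7.65 and 7.57 in control Teff, 7.28 and 7.08 in control Treg, 4.98 and 6.19 in OX40L-JAG1 Teff, 7.41 and 7.35 in OX40L-JAG1 Treg, 7.28 and 6.98 in anti-CD3-CD28 Teff and 8.15 and 8.28 in anti-CD3-CD28 Treg. Both were highest on the anti-CD3-CD28 Treg arrays; for Parp9 the anti-CD3-CD28 Teff arrays came next, and for Trim30a the control Teff arrays did.

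Among the sensors, Oas2, which makes the 2′-5′ oligoadenylates that activate RNase L, read 7.83 and 7.81 in control Teff, 6.09 and 6.18 in control Treg, 5.70 and 5.83 in OX40L-JAG1 Teff, 7.04 and 6.37 in OX40L-JAG1 Treg, 8.54 and 8.54 in anti-CD3-CD28 Teff and 8.88 and 9.08 in anti-CD3-CD28 Treg. The control Teff arrays were above the control Treg arrays, and the 4 anti-CD3-CD28 arrays were above both. Dhx58, the RIG-I-like receptor LGP2, read 6.75 and 6.59 in control Teff, 6.36 and 6.55 in control Treg, 5.29 and 5.54 in OX40L-JAG1 Teff, 6.39 and 6.14 in OX40L-JAG1 Treg, 7.89 and 7.63 in anti-CD3-CD28 Teff and 8.39 and 8.48 in anti-CD3-CD28 Treg. The 4 anti-CD3-CD28 arrays were above the other 8 for Dhx58, and OX40L-JAG1 Treg arrays overlapped control Treg arrays. Eif2ak2, the kinase PKR that halts translation on binding double-stranded RNA, read 6.53 and 6.63 in control Teff, 7.06 and 7.25 in control Treg, 5.00 and 5.98 in OX40L-JAG1 Teff, 7.78 and 7.27 in OX40L-JAG1 Treg, 8.18 and 7.80 in anti-CD3-CD28 Teff and 9.04 and 8.72 in anti-CD3-CD28 Treg. Ifih1, the RIG-I-like receptor MDA5, read 7.79 and 7.93 in control Teff, 7.81 and 7.61 in control Treg, 5.72 and 6.12 in OX40L-JAG1 Teff, 8.15 and 8.12 in OX40L-JAG1 Treg, 8.29 and 8.13 in anti-CD3-CD28 Teff and 8.88 and 8.80 in anti-CD3-CD28 Treg. For both, the anti-CD3-CD28 Treg arrays were highest and the OX40L-JAG1 Teff arrays lowest. The other sensors measured were Ddx58, Zbp1, Oas3, Oasl1 and Oasl2, with group means from 5.19 for Oasl1 in OX40L-JAG1 Treg cells to 11.31 for Zbp1 in anti-CD3-CD28 Treg cells.

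Among the effectors, Isg20, an exonuclease that degrades single-stranded RNA, read 7.02 and 7.04 in control Teff, 7.69 and 7.92 in control Treg, 4.99 and 5.39 in OX40L-JAG1 Teff, 6.86 and 7.93 in OX40L-JAG1 Treg, 7.39 and 7.60 in anti-CD3-CD28 Teff and 9.05 and 9.02 in anti-CD3-CD28 Treg. The OX40L-JAG1 Treg arrays differed by more than 1 log2 unit for this gene, the largest gap between replicates of that group among the 41 genes. Ifit1, which binds RNA lacking the host cap methylation, read 7.17 and 7.33 in control Teff, 7.21 and 7.58 in control Treg, 5.37 and 6.20 in OX40L-JAG1 Teff, 6.90 and 7.06 in OX40L-JAG1 Treg, 7.85 and 7.87 in anti-CD3-CD28 Teff and 8.29 and 8.40 in anti-CD3-CD28 Treg. Isg15, the ubiquitin-like modifier, read 6.42 and 6.36 in control Teff, 7.21 and 7.06 in control Treg, 5.04 and 6.13 in OX40L-JAG1 Teff, 6.28 and 6.73 in OX40L-JAG1 Treg, 8.02 and 7.87 in anti-CD3-CD28 Teff and 7.85 and 8.07 in anti-CD3-CD28 Treg. For Isg15 the 4 anti-CD3-CD28 arrays were above all others and Treg and Teff arrays of that treatment overlapped.

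The genes of the dynamin-like GTPases Mx1 and Mx2 were dim. Mx2 read 5.18 and 5.24 in control Teff, 5.45 and 5.64 in control Treg, 4.11 and 3.48 in OX40L-JAG1 Teff, 3.67 and 4.01 in OX40L-JAG1 Treg, 6.74 and 6.27 in anti-CD3-CD28 Teff and 6.39 and 6.05 in anti-CD3-CD28 Treg. Mx1 read 3.92 and 4.44 in control Teff, 3.80 and 4.34 in control Treg, 3.68 and 3.32 in OX40L-JAG1 Teff, 3.49 and 3.82 in OX40L-JAG1 Treg, 5.81 and 5.84 in anti-CD3-CD28 Teff and 5.14 and 5.04 in anti-CD3-CD28 Treg. Mx1 was above the floor only in the anti-CD3-CD28 groups, with Teff above Treg on every array, and Mx2 was below the floor in both OX40L-JAG1 groups.

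Among the GBPs, Gbp7 read 9.44 and 9.42 in control Teff, 9.27 and 9.46 in control Treg, 6.97 and 7.73 in OX40L-JAG1 Teff, 10.62 and 10.42 in OX40L-JAG1 Treg, 10.00 and 9.74 in anti-CD3-CD28 Teff and 11.56 and 11.48 in anti-CD3-CD28 Treg. Its order was OX40L-JAG1 Teff, control cells, anti-CD3-CD28 Teff, OX40L-JAG1 Treg and anti-CD3-CD28 Treg, with no overlap between these steps. Gbp3 read 5.23 and 5.50 in control Teff, 7.34 and 7.37 in control Treg, 4.60 and 5.95 in OX40L-JAG1 Teff, 8.34 and 8.53 in OX40L-JAG1 Treg, 7.58 and 7.46 in anti-CD3-CD28 Teff and 8.96 and 8.85 in anti-CD3-CD28 Treg. Gbp5, which is known to promote inflammasome activation, read 5.97 and 5.96 in control Teff, 7.19 and 7.21 in control Treg, 5.11 and 5.14 in OX40L-JAG1 Teff, 8.14 and 7.87 in OX40L-JAG1 Treg, 8.00 and 7.83 in anti-CD3-CD28 Teff and 8.48 and 8.51 in anti-CD3-CD28 Treg. Gbp2b, also called Gbp1, read 3.30 and 3.68 in control Teff, 7.02 and 6.78 in control Treg, 3.67 and 4.83 in OX40L-JAG1 Teff, 5.96 and 6.30 in OX40L-JAG1 Treg, 3.88 and 4.98 in anti-CD3-CD28 Teff and 7.10 and 7.13 in anti-CD3-CD28 Treg. For Gbp2b all 6 Treg arrays were above all 6 Teff arrays, whatever the treatment, and for Gbp3 and Gbp5 the fresh Treg arrays were also above the fresh Teff arrays.

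Among the IRGs, Iigp1 (Irga6), an effector GTPase that coats parasite vacuoles, read 6.97 and 7.22 in control Teff, 7.97 and 8.13 in control Treg, 7.32 and 8.09 in OX40L-JAG1 Teff, 10.48 and 10.38 in OX40L-JAG1 Treg, 10.30 and 10.18 in anti-CD3-CD28 Teff and 11.07 and 11.03 in anti-CD3-CD28 Treg. Its 6 arrays of anti-CD3-CD28 cells and OX40L-JAG1 Treg cells were above the other 6, with no overlap. Irgm1, Irgm2 and Igtp (Irgm3) are regulatory IRGs that keep the effector GTPases off the cell's own membranes. Irgm1 read 7.36 and 7.01 in control Teff, 7.41 and 7.32 in control Treg, 6.25 and 7.37 in OX40L-JAG1 Teff, 8.68 and 8.48 in OX40L-JAG1 Treg, 8.56 and 8.32 in anti-CD3-CD28 Teff and 9.13 and 9.02 in anti-CD3-CD28 Treg. Irgm2 read 7.17 and 6.88 in control Teff, 7.33 and 7.34 in control Treg, 7.34 and 7.56 in OX40L-JAG1 Teff, 9.20 and 9.08 in OX40L-JAG1 Treg, 8.26 and 7.81 in anti-CD3-CD28 Teff and 8.90 and 8.88 in anti-CD3-CD28 Treg. Igtp read 9.38 and 9.19 in control Teff, 9.07 and 9.60 in control Treg, 8.98 and 9.57 in OX40L-JAG1 Teff, 10.86 and 11.12 in OX40L-JAG1 Treg, 10.49 and 10.46 in anti-CD3-CD28 Teff and 11.06 and 11.12 in anti-CD3-CD28 Treg. Irgm2 was the IRG with its highest mean in OX40L-JAG1 Treg cells, and for Igtp the arrays of the treated Treg groups overlapped. GBPs and IRGs are families of related sequence, and whether the probe sets separate their members was not tested.

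**Figure D2:**
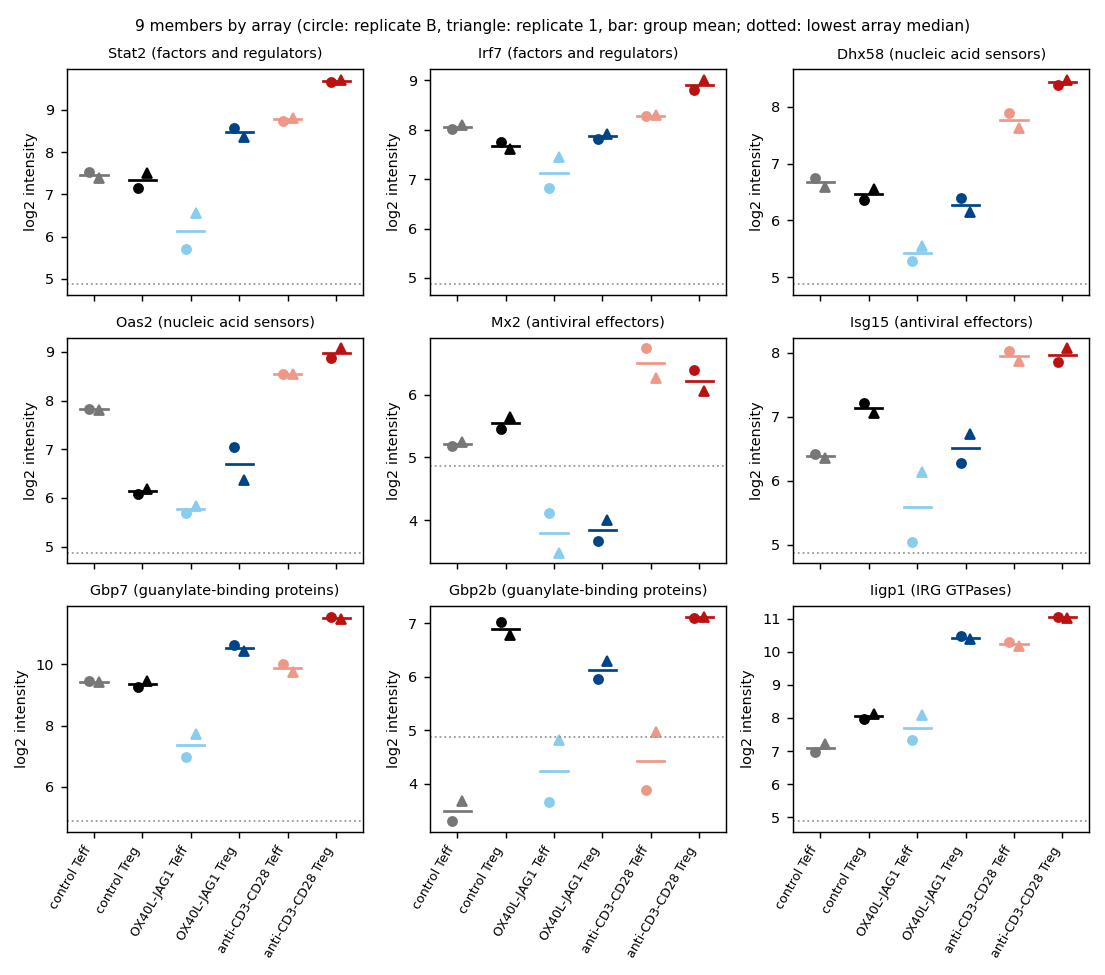
Points are the log2 levels of single arrays by group, 2 arrays a group, for 9 of the genes (circles replicate B, triangles replicate 1), with a bar at each group mean and a dotted line at the floor of 4.87. Iigp1 and Gbp7 stand high in both treated Treg groups, whereas Oas2, Dhx58, Isg15 and Mx2 stand higher in anti-CD3-CD28 cells than in OX40L-JAG1 Treg cells.

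Anti-CD3-CD28 Treg cells were compared with fresh Treg cells, from which they differ by 3 days of culture as well as by the 2 antibodies. Of the 41 genes, 29 rose and none fell, where 8.08% of all genes rose and 1.97% fell (limma, Benjamini-Hochberg adjusted p under 0.05 over all genes; differences are log2 ± SE). None had a negative difference with an unadjusted p under 0.05. The difference was positive for all 41, with a median of 1.23 beside -0.05 for all genes. Iigp1 rose by 3.00 ± 0.24 (adjusted p = 1.63e-05), which is 8.01-fold. Oas2 rose by 2.84 ± 0.22 (adjusted p = 1.42e-05), 7.18-fold. Stat2 rose by 2.36 ± 0.26 (adjusted p = 0.000157) and Gbp7 by 2.16 ± 0.24 (adjusted p = 0.000171). By role, 6 of 9 factors and regulators, 8 of 9 sensors, 6 of 13 effectors, 5 of 6 GBPs and 4 of 4 IRGs rose. Among the sensors Dhx58 rose by 1.99 ± 0.20, and Oas3, another RNase L activator, rose by 1.93 ± 0.21. Among the regulators Usp18 rose by 1.42 ± 0.21. The effectors that rose were Tap1 (the peptide transporter of MHC class I loading), Samhd1 (a dNTP hydrolase), Isg20, Mx1, Ifit1 and Rsad2 (viperin), by 1.47 down to 0.92. The 12 genes not called had differences of 0.21 to 1.04: Parp14, Ifi35, Trim30a, Oasl1, Isg15, Ifit2, Ifit3, Mx2, Bst2, Rtp4, Xaf1 and Gbp2b. Gbp6 was among the 29 genes but below the floor in both groups, so no fold is given. Mx1 was below the floor in fresh Treg cells, and the difference is at least 1.17-fold. The count was lower when any 1 control Treg or anti-CD3-CD28 Treg array was left out, and calls over all genes fell too. The median difference of the 41 genes was 1.14 to 1.29 in these fits. Of the other cell types' markers, 1 of 7 B cell and 1 of 7 plasmacytoid dendritic cell markers fell, and 1 of 7 plasmacytoid dendritic cell, 1 of 7 neutrophil and 1 of 2 platelet markers rose, and their part was not tested. When the OX40L-JAG1 Teff arrays were left out of the model 36 genes rose and none fell, beside 14.8% and 6.75% of all genes.

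In OX40L-JAG1 Treg cells the called genes were fewer, and 5 of the 8 that rose were GTPases of the IRG and GBP families. Of the 41 genes, 8 rose and 1 fell against fresh Treg cells, where 0.996% of all genes rose and 0.559% fell. The genes that rose were Iigp1 by 2.38 ± 0.24 (adjusted p = 0.00072), Irgm2 by 1.80 ± 0.21 (adjusted p = 0.00131), Igtp by 1.66 ± 0.24 (adjusted p = 0.00552), Gbp4 by 1.43 ± 0.22 (adjusted p = 0.00645), Samhd1 by 1.27 ± 0.18 (adjusted p = 0.00405), Oasl2 by 1.24 ± 0.25, Gbp7 by 1.16 ± 0.24 and Tap1 by 1.01 ± 0.18. Iigp1 was thus 5.21-fold higher and Igtp 3.16-fold. The counts were 3 of 4 IRGs, 2 of 6 GBPs, 2 of 13 effectors, 1 of 9 sensors and no factor or regulator, of which 3 of 9 had an unadjusted p under 0.05. The fourth IRG, Irgm1, differed by 1.22 ± 0.31 (adjusted p = 0.0943) and was not called. Mx2 fell by 1.71 ± 0.26 (adjusted p = 0.00628) and was below the floor in OX40L-JAG1 Treg cells, so it was at least 1.6-fold lower. The counts depend on single arrays: fewer of the 41 genes were called when any 1 control Treg or OX40L-JAG1 Treg array was left out. Calls over all genes fell too. The median difference of the 41 genes, 0.42 with all arrays, was 0.35 to 0.51 in these fits. Mx2 kept its call without OX40L-JAG1 Treg replicate 1 and lost it in the other 3 of these fits. Median differences were 1.73 for IRGs, 0.94 for GBPs, 0.41 for factors and regulators, 0.41 for sensors and -0.40 for effectors, beside -0.01 for all genes. Isg15 differed by -0.63 ± 0.30 (adjusted p = 0.539), Rsad2 by -0.58 ± 0.20 (adjusted p = 0.286) and Oas3 by 0.05 ± 0.21 (adjusted p = 0.989), and none was called. Stat2 differed by 1.14 ± 0.26 (adjusted p = 0.0665) and Irf1 by 0.69 ± 0.21 (adjusted p = 0.184), also not called.

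Other cell types' markers moved in the same comparison. Of 7 neutrophil markers 4 rose, and the list's mean per array went from 3.87 to 3.93 in fresh Treg cells to 6.43 to 6.82 in OX40L-JAG1 Treg cells, and of 6 basophil and mast cell markers 3 rose. Of 9 myeloid and conventional dendritic cell markers 2 rose, and both platelet markers, Pf4 and Ppbp, did. None of 7 plasmacytoid dendritic cell markers, 7 B cell markers and 6 CD8 T and NK cell markers was called. The part of these markers in the differences above was not tested. Leaving the OX40L-JAG1 Teff arrays out of the model gave 16 genes that rose and 1 that fell, beside 3.40% and 2.01% of all genes. The 16 were 4 of 4 IRGs, 4 of 6 GBPs, 3 of 9 factors and regulators, 2 of 9 sensors and 3 of 13 effectors, 8 of them GTPases of these families and 8 not; a difference between the role groups was not tested.

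The treated Treg groups were set against each other, which leaves the uncultured control out. Of the 41 genes, 15 were higher with anti-CD3-CD28 and none was lower, where 4.73% of all genes were higher and 1.18% lower. No negative difference had an unadjusted p under 0.05. Mx2 was higher by 2.38 ± 0.26 (adjusted p = 0.00024), Oas2 by 2.28 ± 0.22 (adjusted p = 0.000129), Dhx58 by 2.17 ± 0.20 (adjusted p = 7.83e-05) and Oas3 by 1.88 ± 0.21 (adjusted p = 0.000324). For Oas2 this is 4.84-fold and for Dhx58 4.51-fold; for Mx2, below the floor with OX40L-JAG1, it is at least 2.56-fold. The called genes included 6 of 13 effectors (Mx2, Isg20, Rsad2, Isg15, Mx1 and Ifit1), 4 of 9 sensors (Oas2, Dhx58, Oas3 and Eif2ak2) and 4 of 9 factors and regulators (Usp18, Stat2, Irf7 and Parp9). Only Gbp7 of 6 GBPs was called, by 1.00 ± 0.24 (adjusted p = 0.0333), and none of 4 IRGs, of which 1 had an unadjusted p under 0.05. The IRG differences were 0.62 ± 0.24 for Iigp1, 0.50 ± 0.31 for Irgm1, 0.10 ± 0.24 for Igtp and -0.25 ± 0.21 for Irgm2. Median differences were 1.11 for sensors, 0.90 for effectors, 0.84 for factors and regulators, 0.48 for GBPs and 0.30 for IRGs, beside -0.02 for all genes. A difference between the role groups was not tested. Neutrophil markers were lower with anti-CD3-CD28 in this comparison, 4 of 7 being called, and their part was not tested. The count was lower when any 1 array of the treated Treg groups was left out, and calls over all genes fell too. The median difference of the 41 genes, 0.70 with all arrays, was 0.60 to 0.74 in these fits. In the model without the OX40L-JAG1 Teff arrays 23 genes were higher and none lower, beside 9.89% and 4.01%.

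**Figure D3:**
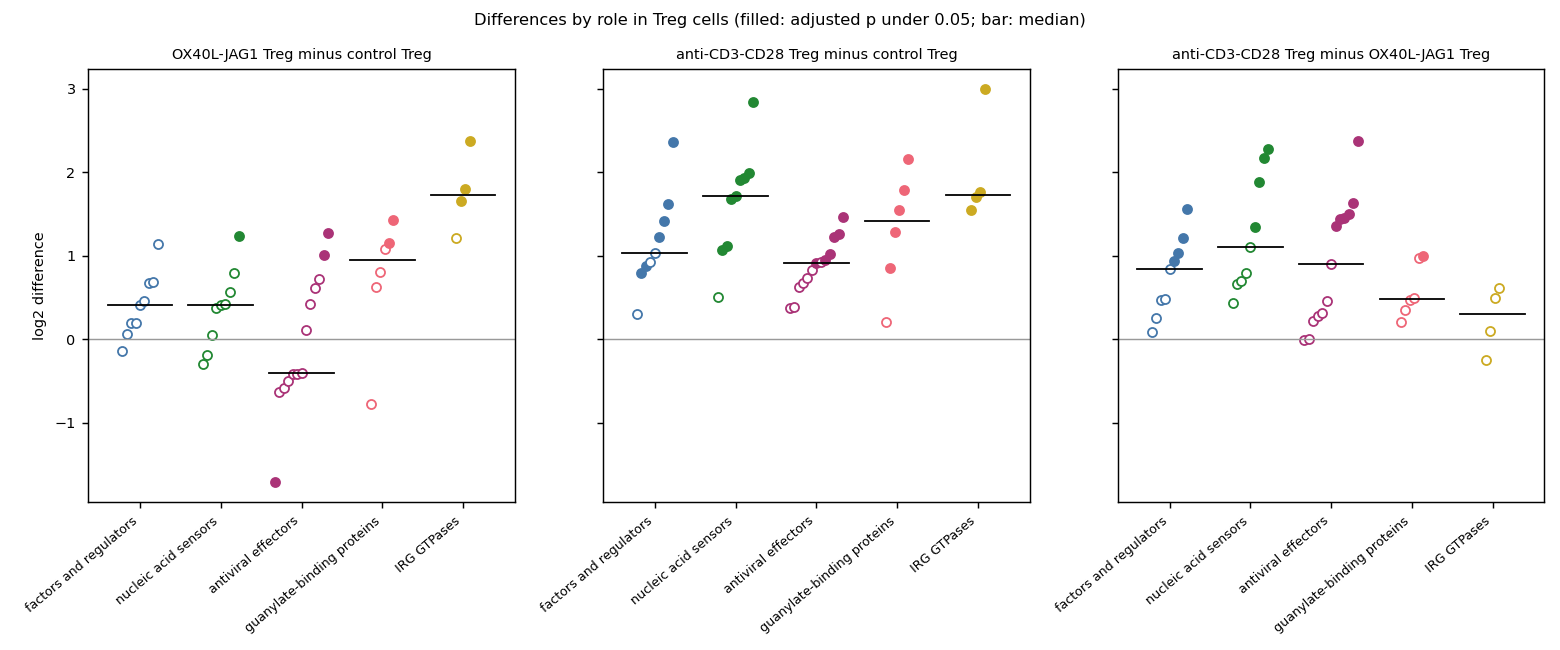
Each point is 1 of the 41 genes, placed by role, with its log2 difference in Treg cells: OX40L-JAG1 minus control, anti-CD3-CD28 minus control, and anti-CD3-CD28 minus OX40L-JAG1; filled points have an adjusted p under 0.05 and bars are medians. Against control the IRG median is 1.73 with OX40L-JAG1 and 1.74 with anti-CD3-CD28, while the effector median is -0.40 with OX40L-JAG1 and 0.92 with anti-CD3-CD28.

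In fresh cells, 3 of 6 GBPs were higher in Treg than in Teff cells. Among the 41 genes 3 were called higher and 1 lower in control Treg cells, where 1.34% of all genes were higher and 2.51% lower. The 3 were all GBPs: Gbp2b by 3.41 ± 0.39 (adjusted p = 0.00059), Gbp3 by 1.99 ± 0.34 (adjusted p = 0.00694) and Gbp5 by 1.24 ± 0.18 (adjusted p = 0.00243). Gbp2b was below the floor in control Teff cells, so it was at least 4.1-fold higher. Gbp7 differed by -0.06 ± 0.24 (adjusted p = 0.949) and Gbp4 by -0.23 ± 0.22 (adjusted p = 0.702) and neither was called. Gbp6, below the floor, was also not called. Oas2 was lower in control Treg cells, at -1.68 ± 0.22 (adjusted p = 0.00142), which is 3.21-fold lower. The median over the 9 sensors was -0.52, beside 0.02 for all genes, and no sensor other than Oas2 was called. B cell markers were also lower in control Treg cells, 4 of 7 being called, with list means of 6.41 to 6.46 in control Teff and 4.97 to 5.29 in control Treg cells, and their part was not tested. The model without the OX40L-JAG1 Teff arrays gave 8 genes higher and 4 lower, beside 5.59% and 8.93% of all genes.

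In Teff cells, anti-CD3-CD28 was followed by a rise of all the IRGs, of 3 GBPs and of part of the antiviral genes. Of the 41 genes, 17 rose and none fell against control Teff cells, where 5.44% of all genes rose and 9.75% fell, and no gene had a negative difference at an unadjusted p under 0.05. Iigp1 rose by 3.15 ± 0.24 (adjusted p = 1.57e-05), 8.85-fold. Gbp3 rose by 2.16 ± 0.34 (adjusted p = 0.00141), Gbp5 by 1.95 ± 0.18 (adjusted p = 4.31e-05) and Mx1 by 1.65 ± 0.25 (adjusted p = 0.00116), the last at least 1.95-fold because it was below the floor in control Teff cells. By role, 4 of 4 IRGs, 3 of 6 GBPs, 4 of 9 sensors, 4 of 13 effectors and 2 of 9 factors and regulators rose, and the median was 0.83 beside 0.07 for all genes. Usp18 differed by -0.02 ± 0.21 (adjusted p = 0.974), Irf9 by -0.10 ± 0.19 (adjusted p = 0.8) and Gbp7 by 0.44 ± 0.24 (adjusted p = 0.274), none of them called. The count was lower when any 1 control Teff or anti-CD3-CD28 Teff array was left out, and calls over all genes fell too. The median difference of the 41 genes was 0.71 to 0.79 in these fits. Other markers moved in the same comparison: 6 of 7 B cell markers fell, with list means of 6.41 to 6.46 in control and 4.79 to 4.86 in anti-CD3-CD28 Teff cells, and 3 of 6 T cell markers (Cd3e, Cd4 and Cd5) fell, with list means of 10.93 to 10.97 and 10.09 to 10.11. Both platelet markers, Pf4 and Ppbp, rose, with means of 4.10 to 4.15 and 7.28 to 7.29. In addition 2 of 7 plasmacytoid dendritic cell, 1 of 9 myeloid and conventional dendritic cell and 1 of 7 neutrophil markers fell, and 1 of 6 CD8 T and NK cell markers rose. Their part in these counts was not tested. Without the OX40L-JAG1 Teff arrays in the model 25 genes rose and 1 fell, beside 12.5% and 16.5% of all genes.

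Set directly against each other, anti-CD3-CD28 Treg cells had the higher level for 12 genes and anti-CD3-CD28 Teff cells for none, where 9.03% of all genes were higher in Treg cells and 2.89% lower; at an unadjusted p under 0.05, 2 (Oasl2 and Mx1) were higher in Teff cells. Gbp2b, below the floor in anti-CD3-CD28 Teff cells, was at least 4.75-fold higher in Treg cells (adjusted p = 0.00174). Usp18 was higher by 1.71 ± 0.21 (adjusted p = 0.000576), Gbp7 by 1.65 ± 0.24 (adjusted p = 0.00182) and Isg20 by 1.54 ± 0.30 (adjusted p = 0.00772). Iigp1 differed by 0.81 ± 0.24 (adjusted p = 0.0508), Isg15 by 0.01 ± 0.30 (adjusted p = 0.986) and Mx1 by -0.74 ± 0.25 (adjusted p = 0.0815), none called. With quantile normalization 6 genes were called, all higher in Treg cells. The count was also lower when any 1 of the anti-CD3-CD28 arrays was left out. The 9.03% belongs to the fit with all arrays, and the shares of all genes in these other fits are not given here. Of the other markers, 2 of 6 T cell, 2 of 7 plasmacytoid dendritic cell and 1 of 7 neutrophil markers were higher in Treg cells, and 2 of 6 basophil and mast cell, 2 of 9 myeloid and conventional dendritic cell and 1 of 6 CD8 T and NK cell markers lower; their part was not tested. Without the OX40L-JAG1 Teff arrays in the model 26 genes were higher and 1 lower, beside 18.2% and 10.4% of all genes.

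The difference between the responses of Treg and Teff cells to anti-CD3-CD28 was tested as an interaction. It passed the threshold for 8 of the 41 genes, each with the larger response in Treg cells, where 10.1% of all genes had a larger and 2.94% a smaller response in Treg cells. At an unadjusted p under 0.05, 15 had a larger and 1, Gbp5, a smaller response. Oas2 differed by 2.12 ± 0.31 (adjusted p = 0.00218), rising by 2.84 ± 0.22 in Treg cells and differing by 0.72 ± 0.22 in Teff cells, where it was not called. Tap1 differed by 1.72 ± 0.26 (adjusted p = 0.00223), Gbp7 by 1.71 ± 0.34 (adjusted p = 0.00961) and Trim30a by 1.52 ± 0.45 (adjusted p = 0.0464). The others were Usp18, Ddx58 (the RNA sensor RIG-I), Irf9 and Samhd1. The difference for Iigp1 was -0.14 ± 0.34 (adjusted p = 0.815), so its responses were not shown to differ. Gbp3 and Gbp5, already higher in fresh Treg cells, had -0.61 ± 0.48 and -0.66 ± 0.25, not called. The count fell to 3 without control Teff replicate B or control Treg replicate B, and to 4 without any other 1 of the arrays outside the OX40L-JAG1 Teff group. It was 17 larger and 2 smaller without the OX40L-JAG1 Teff arrays in the model, beside 20.0% and 11.0%, and 4 larger and 2 smaller with quantile normalization. The shares of all genes with quantile normalization or with 1 array left out are not given here.

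**Figure D4:**
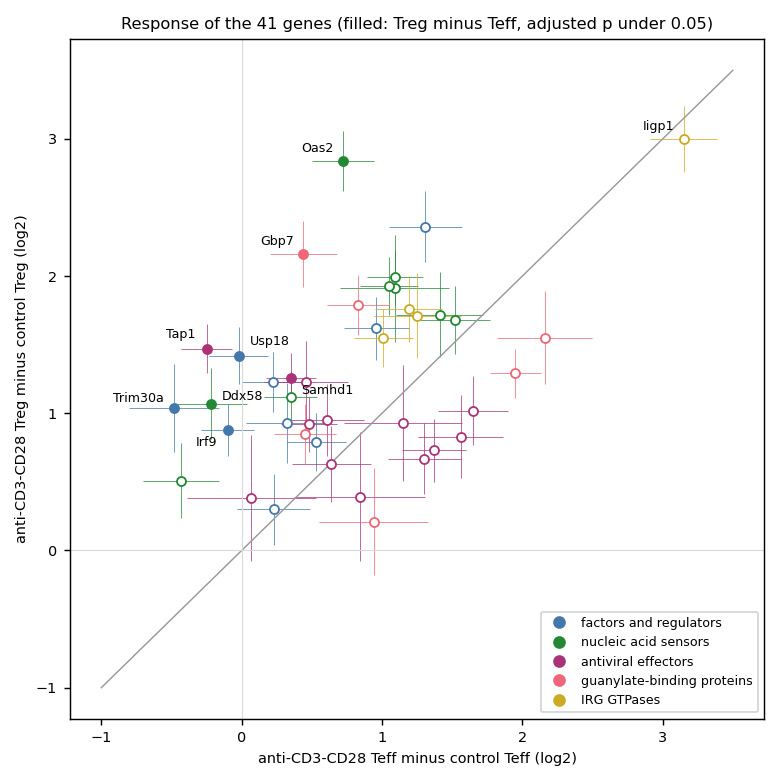
For each of the 41 genes the log2 response to anti-CD3-CD28 in Teff cells (horizontal) is plotted against that in Treg cells (vertical), with bars of 1 SE; the line marks equal responses, and filled points have an adjusted p under 0.05 for the difference of responses. The 8 filled points lie above the line, and Iigp1 lies near it at 3.15 and 3.00; both axes include the control of the same cell type.

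The comparisons with OX40L-JAG1 Teff cells rest on the 2 arrays that stood apart, and their values are given with that limit. Against control Teff cells 24 of the 41 genes fell and none rose, where 26.9% of all genes fell and 20.0% rose; 1 gene rose at an unadjusted p under 0.05. Gbp7 differed by -2.08 ± 0.24 (adjusted p = 0.000102), Ddx58 by -2.07 ± 0.26 (adjusted p = 0.000151), Oas2 by -2.05 ± 0.22 (adjusted p = 6.91e-05) and Trim30a by -2.03 ± 0.32 (adjusted p = 0.000505). None of the 4 IRGs was called, and their median was 0.21, beside -0.90 for the 41 genes and 0.18 for all genes. When genes below the floor in every group were left out, the median was -0.92 for these genes and -0.46 for all genes. With quantile normalization 12 genes fell and 6 rose, where 4823 of all 22180 genes were called and 41.8% of those rose. T cell markers fell in the same comparison, 5 of 6 being called, and 6 of 7 neutrophil and 4 of 6 basophil and mast cell markers rose. Replicate B was higher than replicate 1 for only 6 of the 41 genes in this group, and the median gap between its replicates was 0.63, against 0.09 to 0.22 in the other groups.

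Against the same arrays, 35 genes were higher in anti-CD3-CD28 Teff cells and none lower, where 18.9% of all genes were higher and 9.15% lower, with none lower at an unadjusted p under 0.05. Gbp5 was higher by 2.79 ± 0.18 (adjusted p = 5.59e-06), Oas2 by 2.77 ± 0.22 (adjusted p = 2.45e-05), and Stat2 by 2.64 ± 0.26 (adjusted p = 8.14e-05). Mx2, below the floor in OX40L-JAG1 Teff cells, was at least 3.12-fold higher (adjusted p = 6.31e-05). In OX40L-JAG1 Treg cells 33 genes were higher than in OX40L-JAG1 Teff cells and none lower, where 24.6% of all genes were higher and 16.5% lower; Rsad2 was lower at an unadjusted p under 0.05. Gbp7 was higher by 3.17 ± 0.24 (adjusted p = 3.66e-05), Gbp3 by 3.16 ± 0.34 (adjusted p = 0.000104), Gbp5 by 2.88 ± 0.18 (adjusted p = 1.27e-05) and Iigp1 by 2.73 ± 0.24 (adjusted p = 5.21e-05). The count was 20 with quantile normalization, where 4013 of all 22180 genes were called and 56.9% of those were higher in Treg cells. The response to OX40L-JAG1, taken with its sign, differed between Treg and Teff cells for 27 genes. Each had the higher value in Treg cells, beside 21.3% of all genes with a higher and 10.2% with a lower value. With quantile normalization the count was 11, and the share of all genes in that fit is not given here. A higher value can come from a fall in Teff cells as well as from a rise in Treg cells. Gbp7 differed by 3.23 ± 0.34 (adjusted p = 0.000295), Oas2 by 2.62 ± 0.31 (adjusted p = 0.000379), Stat2 by 2.47 ± 0.37 (adjusted p = 0.000935) and Ddx58 by 2.47 ± 0.37 (adjusted p = 0.000914). Each of these genes was called lower in OX40L-JAG1 Teff than in control Teff cells. Among them Gbp7 alone was called higher in OX40L-JAG1 Treg than in control Treg cells. The part of the makeup and quality of the OX40L-JAG1 Teff arrays in these counts was not tested.

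Upstream and neighbouring genes of the pathway were read from a list of 89, of which 79 were measured. Ifng, the gene of interferon gamma, read 5.10 and 4.98 in control Teff, 5.13 and 4.67 in control Treg, 4.65 and 4.88 in OX40L-JAG1 Teff, 4.44 and 4.69 in OX40L-JAG1 Treg, 7.74 and 7.54 in anti-CD3-CD28 Teff and 5.45 and 5.43 in anti-CD3-CD28 Treg. It was high on the 2 anti-CD3-CD28 Teff arrays, having risen by 2.60 ± 0.21 (adjusted p = 1.93e-05) there. Ifng was near the floor of 4.87 in control cells, with means of 5.04 in Teff and 4.90 in Treg cells. It was below the floor in both OX40L-JAG1 groups. In anti-CD3-CD28 Treg cells it differed from fresh Treg cells by 0.54 ± 0.21 (adjusted p = 0.149) and was not called, and the difference of responses was -2.06 ± 0.30 (adjusted p = 0.0019). Between anti-CD3-CD28 Treg and Teff cells it differed by -2.20 ± 0.21 (adjusted p = 0.000102).

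Ifngr1, the ligand-binding chain of the interferon gamma receptor, read 9.51 and 9.36 in control Teff, 9.83 and 10.04 in control Treg, 9.48 and 9.71 in OX40L-JAG1 Teff, 12.02 and 11.75 in OX40L-JAG1 Treg, 9.95 and 9.89 in anti-CD3-CD28 Teff and 11.62 and 11.51 in anti-CD3-CD28 Treg. It rose in Treg cells by 1.95 ± 0.19 (adjusted p = 0.000597) with OX40L-JAG1 and by 1.63 ± 0.19 (adjusted p = 0.000202) with anti-CD3-CD28, and differed by 0.49 ± 0.19 (adjusted p = 0.117) in anti-CD3-CD28 Teff cells, not called. Ifnar1, a chain of the type I receptor, fell by 0.73 ± 0.21 (adjusted p = 0.0398) in anti-CD3-CD28 Teff cells and differed by 0.45 ± 0.21 (adjusted p = 0.251) in anti-CD3-CD28 Treg cells, not called. Socs1, the feedback inhibitor of Jak kinases, rose by 1.93 ± 0.27 (adjusted p = 0.000684) in anti-CD3-CD28 Treg, by 1.25 ± 0.27 (adjusted p = 0.0436) in OX40L-JAG1 Treg and by 1.35 ± 0.27 (adjusted p = 0.00561) in anti-CD3-CD28 Teff cells. Both treated Treg groups thus had more Ifngr1 and more Socs1 transcript than fresh Treg cells.

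Of the 79 pathway genes, 23 rose and 1 fell in anti-CD3-CD28 Treg cells, 5 rose and none fell in OX40L-JAG1 Treg cells, and 16 rose and 11 fell in anti-CD3-CD28 Teff cells, each against fresh cells of the same kind. As shares of the 79, the genes that rose were 29.1%, 6.33% and 20.3%, beside 8.08%, 0.996% and 5.44% of all genes, and those that fell stood beside 1.97%, 0.559% and 9.75% of all genes. Those 5 were Ifitm3, Ifngr1, Parp12, Socs1 and Cmpk2. Ifitm3, a membrane protein that blocks fusion of viruses with endosomes, rose by 2.70 ± 0.42 (adjusted p = 0.00772) with OX40L-JAG1 and by 3.75 ± 0.42 (adjusted p = 0.000173) with anti-CD3-CD28 in Treg cells, and by 3.57 ± 0.42 (adjusted p = 0.000252) in anti-CD3-CD28 Teff cells. Its relative Ifitm2, below the floor in fresh Treg cells, rose at least 6.53-fold (adjusted p = 0.00294) in anti-CD3-CD28 Treg cells, and it rose by 2.52 ± 0.64 in anti-CD3-CD28 Teff cells. Ifitm1, below the floor in fresh Teff cells, rose at least 3.3-fold in the latter. Parp12, an ADP-ribosyltransferase with antiviral activity, rose in Treg cells by 1.67 ± 0.20 with OX40L-JAG1 and by 2.57 ± 0.20 with anti-CD3-CD28, and Mlkl, the executioner of necroptosis, rose by 2.56 ± 0.29 with anti-CD3-CD28. Gbp11 rose by 2.53 ± 0.23 (adjusted p = 4.69e-05) in anti-CD3-CD28 Teff cells. Between the treated Treg groups 11 pathway genes were higher with anti-CD3-CD28 and none lower, beside 4.73% and 1.18% of all genes, including Socs3 by 1.98 ± 0.22, Mlkl by 1.95 ± 0.29, Irf8 by 1.58 ± 0.23 and Ifna4 by 1.53 ± 0.27. The anti-CD3-CD28 Treg arrays differed for Ifna4, at 6.64 and 7.63, and fresh Teff cells read 7.20 and 7.19. The other type I interferon genes measured, Ifnb1, Ifna2 and Ifne, were below the floor in all 6 groups. Whether the probe set separates Ifna4 from related genes was not tested. In fresh Treg against fresh Teff cells 3 pathway genes were higher, Casp4 by 1.92 ± 0.32, Tlr7 by 1.41 ± 0.26 and Phf11b by 1.21 ± 0.22, and Jak1 was lower, at -0.83 ± 0.18, beside 1.34% and 2.51% of all genes. Between anti-CD3-CD28 Treg and Teff cells 22 were higher in Treg cells and 3 lower, led by Ifng, beside 9.03% and 2.89% of all genes.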

How the data were processed

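The authors deposited log2 intensities of 41345 probe sets on 12 arrays, summarised with RMA (no version stated) per the submitters' processing notes. The values were used as deposited. Of the probe sets, 23521 carried 1 gene symbol, 1814 several and 16010 none; only the first were used, with the highest-mean probe set per gene, which left 22180 genes. The genes described, the role and pathway lists and the floor were chosen with earlier results of these data known.

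Tests used limma 3.58.1 in R 4.3.3: 1 mean per group over 12 arrays (6 residual degrees of freedom), eBayes, two-sided, Benjamini-Hochberg adjustment over all genes within a comparison, threshold 0.05. The fit was also run on simulated arrays with independent noise and changes in 1 group only. That is a simpler case than these data, and the outcome is not given here. Without the OX40L-JAG1 Teff arrays, 5 residual degrees of freedom remain. Of each role group the 4 genes with the largest range of group means are given array by array, with Stat2, Irf1, Irf7, Irf9, Isg15 and Mx1; in each comparison up to 4 called genes a direction are named, with others added after their values were seen. Alternatives were quantile normalization, scaling to a common median, array weights, leaving out dim genes, averaging a gene's probe sets, a replicate block and leaving out each array. Promoters are RefSeq's on GRCm38.p6. The sources used here do not give the build of the array annotation.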

Additional observations from a re-analysis of the deposited data

Results flagged for a closer look

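The response to anti-CD3-CD28 was larger in Treg than in Teff cells, by a test of the difference itself, for 8 genes: Oas2 (2.12), Tap1 (1.72), Gbp7 (1.71), Trim30a (1.52), Usp18 (1.44), Ddx58 (1.29), Irf9 (0.99) and Samhd1 (0.91), on the log2 scale, where 10.1% of all genes had a larger response in Treg cells. The count was lower when any 1 array outside the OX40L-JAG1 Teff group was left out, and it was 4 larger and 2 smaller with quantile normalization. The 10.1% belongs to the fit with all arrays, and the shares of all genes in these other fits are not given here. Taken with its sign, the response to OX40L-JAG1 was also higher in Treg cells, with the 4 leading genes Gbp7 (3.23), Oas2 (2.62), Stat2 (2.47) and Ddx58 (2.47). All 4 fell in OX40L-JAG1 Teff cells, and only Gbp7 of them was called in OX40L-JAG1 Treg cells, each against control. This result rests on the OX40L-JAG1 Teff arrays. Gbp4 also had 2.47.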

How the results depend on the processing

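Of the 213 called differences of the 41 genes, 5 changed sign with quantile normalization and none with the other settings: Irf7 (0.10) and Gbp4 (0.04) between OX40L-JAG1 Teff and control Teff cells, Irf7 (-0.23) and Ifi35 (-0.38) between OX40L-JAG1 Treg and Teff cells, and Irf7 (-0.03) in the difference of responses to OX40L-JAG1. A further 78 lost their call under it. The cause was not tested. It gave 20 called genes for OX40L-JAG1 Treg against Teff cells, 6 for anti-CD3-CD28 Treg against Teff cells and 11 for the difference of responses to OX40L-JAG1. Scaling to a common median gave 14 for the difference of responses to anti-CD3-CD28, and moved the median difference of all genes there from -0.08 to 0.11. The median of the 41 genes between control Treg and Teff cells, -0.03, was 0.12 with quantile normalization and 0.07 without control Treg replicate B.

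Leaving the OX40L-JAG1 Teff arrays out of the model gave more calls in all 7 comparisons that do not use them, keeping all 94 calls compared: 12 for control Treg against Teff, 17 for OX40L-JAG1 Treg against control, 23 between the treated Treg groups, 26 for anti-CD3-CD28 Teff against control, 27 for anti-CD3-CD28 Treg against Teff, 19 for the difference of responses to anti-CD3-CD28 and 36 for anti-CD3-CD28 Treg against control. Array weights gave 15, 16, 25, 26, 25, 20 and 36 in the same order, and kept 185 of the 213 calls. Calls over all genes rose too. Without the OX40L-JAG1 Teff arrays they went from 853 to 3220 for control Treg against Teff and from 345 to 1200 for OX40L-JAG1 Treg against control. For anti-CD3-CD28 Treg against control they went from 2230 to 4770. With array weights these numbers were 4167, 1010 and 5450.

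With 1 array left out at a time, the counts ranged from 3 to 12 for control Treg against Teff, 2 to 17 for OX40L-JAG1 Treg against control, 18 to 36 for anti-CD3-CD28 Treg against control and 6 to 23 between the treated Treg groups. They ranged from 19 to 31 for OX40L-JAG1 Teff and 9 to 26 for anti-CD3-CD28 Teff against control, 29 to 38 between the treated Teff groups and 27 to 35 for OX40L-JAG1 Treg against Teff. For anti-CD3-CD28 Treg against Teff the range was 5 to 27, and for the differences of responses 3 to 19 (anti-CD3-CD28) and 19 to 35 (OX40L-JAG1). The highest counts came without an OX40L-JAG1 Teff array in all 11 comparisons. The shares of all genes in the fits with 1 array left out are not given here.

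Whether samples with the same replicate label belong together is not given in the labels. The 15 correlations of same-labelled deviations ranged from -0.0693 to 0.182, the highest being between OX40L-JAG1 Teff and OX40L-JAG1 Treg. They cannot decide it, since noise of single arrays lowers them too. The replicate block gave 4, 8, 29, 14, 25, 17, 35, 32, 11, 8 and 28 called genes in the order of the ranges above, and 207 of the 213 calls were kept. The shares of all genes with the replicate block are not given here.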
